A study of Rattus norvegicus with 47 samples.

Results

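The mRNAs described here encode the endothelial, vascular endothelial growth factor (VEGF) and angiopoietin proteins of the rat kidney. They were chosen by name as 10 genes, namely Vegfa, Kdr, Flt1, Pecam1, Cdh5, Tek, Angpt1, Angpt2, Ehd3 and Plvap, and 9 of them matched the symbol column of the kidney mRNA table, which held 14747 genes. Pecam1 was not analysed here. All 9 had a mean of at least 5 normalized counts and entered the tests, which covered 13673 genes. RNA of unsorted kidney tissue came from 16 male Wistar Han rats that were not genetically modified and were 7 weeks old at the start. Of these rats, 8 were fed a high-fat diet (HFD) and 8 a standard diet (SD) for 10 weeks. Each library was from 1 rat, and the rats are named by diet and rat number. Per the paper, the tissue used for RNA was what remained after other parts were fixed or frozen. The rats also differed in 2 glomerular lesions, podocyte hypertrophy (PH, enlarged podocytes) and mesangial matrix increase (MMI, more matrix between the glomerular capillaries). PH was marked in 9 rats (6 HFD and 3 SD) and absent in 7 (2 HFD and 5 SD), and MMI was marked in 8 rats (5 HFD and 3 SD) and absent in 8 (3 HFD and 5 SD). Only 3 rats, all HFD-fed, carried both lesions, 6 carried PH alone, 5 MMI alone and 2 neither. These marks are not in the sample labels. The names under the columns of the study's lesion heatmaps were read by eye to obtain them, and 1246, 1248 and 1249 were the least legible. The study describes both lesions across the HFD group, and the cutoff behind the marks is not given in the sources used here.

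VEGF-A is secreted in the glomerulus by podocytes and in the rest of the kidney by tubule cells, and acts on capillary endothelium through the receptor tyrosine kinases VEGFR2 (Kdr) and VEGFR1 (Flt1). Angiopoietin-1 activates the endothelial receptor Tie2 (Tek) and keeps vessels quiescent, while angiopoietin-2, made mainly by endothelial cells, can oppose it. VE-cadherin (Cdh5) holds endothelial cells together, Ehd3 is an endocytic recycling protein that marks glomerular endothelium, and Plvap forms the diaphragms of endothelial fenestrae and caveolae, which peritubular capillaries carry and mature glomerular capillaries largely lack.

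The values are the authors' normalized counts, estimated read counts per gene that were scaled between libraries. They are not divided by transcript length, so levels are compared between rats and not between genes. The 16 libraries summed to between 17623718 and 22565849 normalized counts, and mitochondrial transcripts took between 17.9 and 29.6% of them. Markers of podocytes, proximal tubule, thick ascending limb and collecting duct were detected in every library. On the first principal component of log2 values, which held 46.2% of the variance, 5 kidneys lay apart from the other 11 (HFD rats 1252, 1255 and 1274, SD rats 1247 and 1248). All 5 were marked with MMI, and the members' log2 fold changes by lesion are given with and without them. In whole kidney RNA, fewer cells of a type and less RNA per cell cannot be told apart.

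By diet, no member passed the threshold, for which limma's adjusted p had to be under 0.05 and the level had to change by more than 1 on the log2 scale, beside 0% of the 13673 genes. At the same cutoffs the study's DESeq2 test called a few genes, none of them a member. At an unadjusted p under 0.05 the count was 0 of 9 members, beside 593 genes (4.34%). Log2 fold changes, HFD over SD, lay between -0.19 (Angpt2) and 0.06 (Flt1), with adjusted p-values between 0.918 and 0.993. Vegfa (ENSRNOG00000019598) spanned 2028 to 2760 normalized counts in HFD-fed rats (median 2498) and 1790 to 3480 in SD-fed rats (median 2900). The HFD range lay inside the SD range. The 95% interval of its log2 fold change was -0.44 to 0.17. Plvap (ENSRNOG00000017676) spanned 694 to 2896 normalized counts in HFD-fed rats (median 1333) and 566 to 4074 in SD-fed rats (median 1448). SD rat 1244, at 4074, lay far above the next SD rat at 2164, and the interval of the log2 fold change was -0.73 to 0.78. Intervals for the receptors were narrower for Flt1 (-0.29 to 0.41) than for Tek (-0.61 to 0.56). With 8 rats a group, differences inside them remain compatible with the values. The intervals are not a limit of detection, since the threshold also needed a log2 change of more than 1.

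By PH, no member passed the threshold (adjusted p under 0.05, limma), beside 1.27% of all genes tested. At an unadjusted p under 0.05 there were 2 of 9, Angpt2 and Plvap, beside 31.6% of all genes. Angpt2 (ENSRNOG00000016696), the Tie2 ligand, spanned 35.7 to 189 normalized counts in the 9 rats with PH (median 82.0) and 74.0 to 383 in the 7 rats without PH (median 203). The groups overlapped, and 4 rats with PH lay below every rat without it. Its log2 fold change, PH over no PH, was -1.25 ± 0.37 (SE, adjusted p = 0.068). By lesion combination, Angpt2 had 108, 117 and 189 normalized counts in the 3 rats with both lesions and 35.7 to 118 in the 6 rats with PH alone, against 203 and 304 in the 2 rats with neither. It spanned 74.0 to 383 in the 5 rats with MMI alone. Rats with PH alone held the lowest values, but both rats with neither lesion were SD-fed. Plvap, the diaphragm protein, spanned 694 to 4074 normalized counts with PH (median 1823) and 566 to 1580 without PH (median 1153). The groups overlapped, and 5 of the 9 rats with PH lay above every rat without it. Its log2 fold change was 0.81 ± 0.30 (SE, adjusted p = 0.0946). The remaining members had log2 fold changes between -0.36 (Tek) and 0.50 (Angpt1), and adjusted p-values between 0.263 and 0.718. With diet as a covariate both Angpt2 (-1.38, adjusted p = 0.0253) and Plvap (0.93, adjusted p = 0.0421) passed, in a fit that called 3806 genes. Without the 5 kidneys that lay apart, Angpt2 was at -1.22 (adjusted p = 0.23) and Plvap at 0.96 (adjusted p = 0.224), and no gene passed. The other 7 members then lay between -0.04 (Vegfa) and 0.41 (Flt1). With MMI in the same fit Angpt2 and Plvap were at -1.09 (adjusted p = 0.247) and 0.51 (adjusted p = 0.351). Without SD rat 1250 Angpt2 passed, and without HFD rat 1252 both passed (adjusted p = 0.0111 and 0.0139), while over all genes between 0 (SD rat 1244, 1247 or 1249 left out) and 3804 (HFD rat 1252 left out) passed.

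Markers of other cell types were set beside Angpt2 and Plvap by PH. Of 50 such markers 5 passed (10.0%, beside 1.27% of all genes), all of them higher with PH. All 9 podocyte markers had log2 fold changes above 0 and 3 passed, Synpo (1.76), Nphs1 (1.35) and Nes (0.61). The list summed to 6000 to 9217 normalized counts with PH (median 7559) and 2274 to 5572 without PH (median 5109), ranges that did not overlap. Of all single genes tested, 0.132% had ranges by PH that did not overlap. Such a sum is carried most by the most abundant markers. All 8 proximal tubule markers were above 0 and 2 passed, Slc34a1 (1.38) and Pck1 (1.21), with sums of 122900 to 282700 with PH and 56640 to 159400 without PH. All 5 thick ascending limb markers were below 0 (median -0.50), and 4 had an unadjusted p under 0.05 (limma), but none passed. Their sums were 81520 to 133500 with PH and 99960 to 208500 without PH. All 5 red blood cell genes had an unadjusted p under 0.05, beside 31.6% of all genes, and none passed. The sums of these 5 genes were 21650 to 101400 with PH and 11770 to 35550 without PH. Mitochondrial transcripts took 17.9 to 25.1% with PH and 19.1 to 29.6% without PH. Each of the 5 calls was ended by 11 to 13 of 16 single rats when left out, and none held without the 5 kidneys that lay apart. The part of these markers in the values by PH was not tested.

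**Figure D1:**
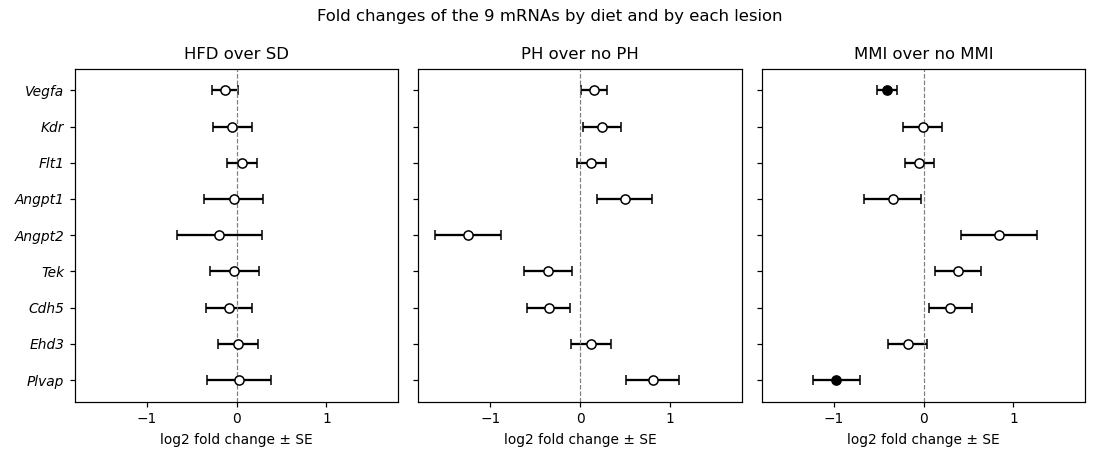
Log2 fold change of each of the 9 mRNAs (rows) on the horizontal axis for HFD over SD, PH over no PH and MMI over no MMI; points are limma estimates, bars are 1 SE, and filled points passed the threshold. The values by diet lie within 0.19 of 0, Angpt2 lies at -1.25 by PH and at 0.84 by MMI, and the filled points are Vegfa (-0.41) and Plvap (-0.97) by MMI.

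By MMI, 2 of the 9 members passed the threshold (adjusted p under 0.05, limma), both lower with MMI, Vegfa and Plvap. All genes tested passed in 26.0% of cases, 17.7% lower and 8.37% higher, so that the members' share was close to the background. At an unadjusted p under 0.05 there were the same 2 of 9, beside 42.1% of all genes. Vegfa spanned 1790 to 2760 normalized counts in the 8 rats with MMI (median 2179) and 2458 to 3480 in the 8 rats without MMI (median 2900). The groups overlapped only through HFD rats 1256 and 1267, and 6 of the 8 rats with MMI lay below every rat without it. The log2 fold change was -0.41 ± 0.11 (SE, adjusted p = 0.0143), or 0.755 times the level without MMI. Plvap spanned 566 to 1465 normalized counts with MMI (median 1167) and 911 to 4074 without MMI (median 1902). The overlap came from SD rat 1251, at 911 without MMI, below which 3 rats with MMI lay. The log2 fold change was -0.97 ± 0.26 (SE, adjusted p = 0.0164), or 0.51 times the level without MMI.

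**Figure D2:**
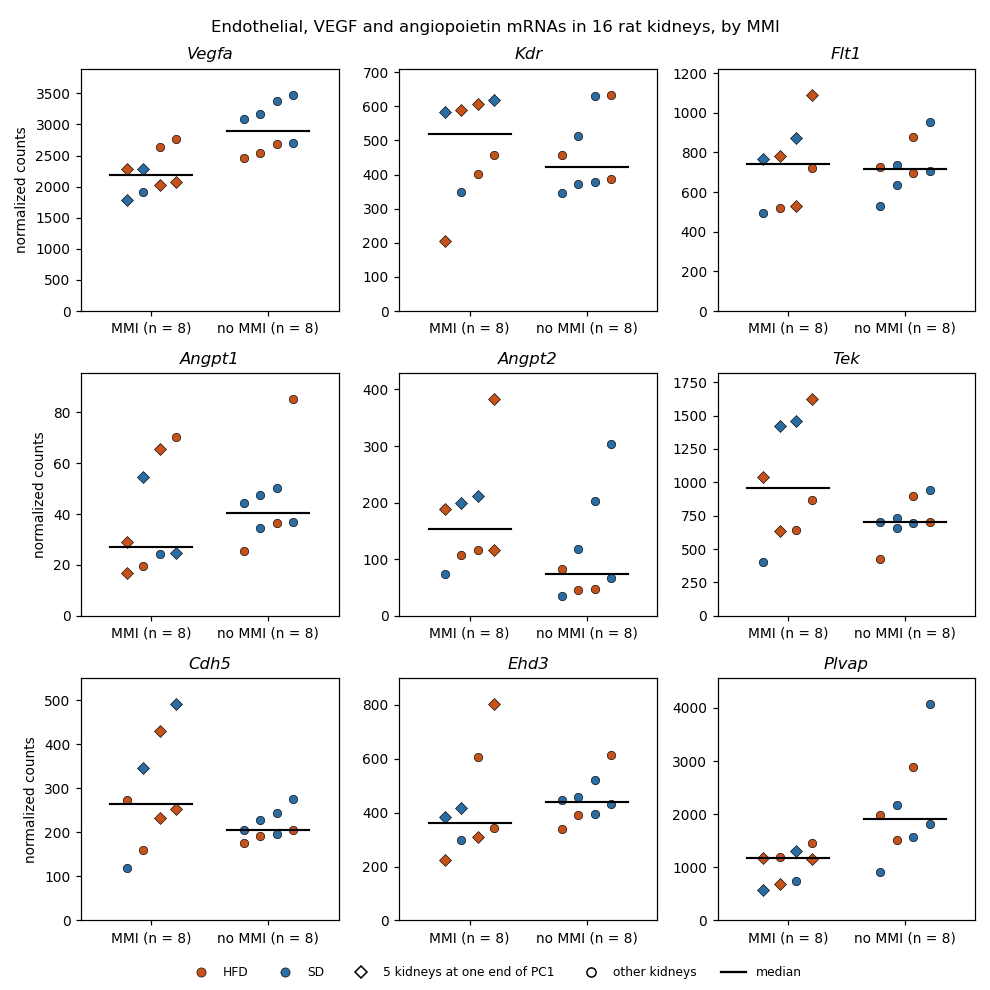
Normalized counts (vertical axes, from 0) of the 9 mRNAs in each of 16 kidneys with MMI (left of each panel) and without MMI (right); colour gives the diet, diamonds are the 5 kidneys that lay apart on the first principal component (PC1), and lines are medians. Vegfa and Plvap sit lower with MMI, while the highest Tek, Cdh5, Angpt2 and Ehd3 values belong to diamonds.

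The 3 kidneys with MMI that lay among the rest gave Vegfa values of 2760 and 2641 in HFD rats 1256 and 1267 and 1920 in SD rat 1250. The 5 that lay apart gave 1790 to 2290. Without those 5, the log2 fold changes, MMI over no MMI, were -0.28 for Vegfa (adjusted p = 0.658) and -0.83 for Plvap (adjusted p = 0.656), and no gene passed in that fit. Plvap had 1465, 1201 and 738 normalized counts in the 3 kidneys with MMI among the rest, in the order 1267, 1256 and 1250, and 566 to 1316 in the 5 that lay apart. With diet as a covariate both remained past the threshold (Vegfa -0.40, adjusted p = 0.0234; Plvap -1.04, adjusted p = 0.0169). No single rat left out ended either call, and over all genes between 2046 (SD rat 1244 left out) and 4953 (SD rat 1250 left out) passed, against 3561 with all rats. Without rats 1246, 1248 and 1249, the least legible, Plvap passed and Vegfa did not (-0.35, adjusted p = 0.0676). With PH in the same fit, Vegfa passed (-0.41, adjusted p = 0.0478) and Plvap did not (-0.78, adjusted p = 0.0744).

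Within each diet, Vegfa differed by MMI more in SD-fed rats, but the difference between the diets did not pass. In HFD-fed rats Vegfa had 2028, 2068, 2289, 2641 and 2760 normalized counts with MMI, against 2458, 2539 and 2693 without MMI. In SD-fed rats it had 1790, 1920 and 2290 with MMI, against 2706, 3094, 3169, 3379 and 3480 without MMI. The ranges overlapped in HFD-fed rats and did not overlap in SD-fed rats, a separation that 10.2% of all tested genes also showed between these 8 SD-fed rats. The log2 fold change by MMI was -0.13 in HFD-fed rats and -0.66 in SD-fed rats. The difference of these effects was 0.53 ± 0.19 (SE), with an adjusted p of 0.649, and no member passed for it, beside 0% of all genes. At an unadjusted p under 0.05 Vegfa was the only 1 of 9 members, beside 6.74% of all genes. Plvap ran lower with MMI under both diets. It had 694, 1153, 1182, 1201 and 1465 normalized counts with MMI in HFD-fed rats, against 1509, 1981 and 2896 without MMI, ranges that did not overlap, as in 18.5% of all genes between these rats. In SD-fed rats it had 566, 738 and 1316 with MMI, against 911, 1580, 1823, 2164 and 4074 without MMI, which overlapped.

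**Figure D3:**
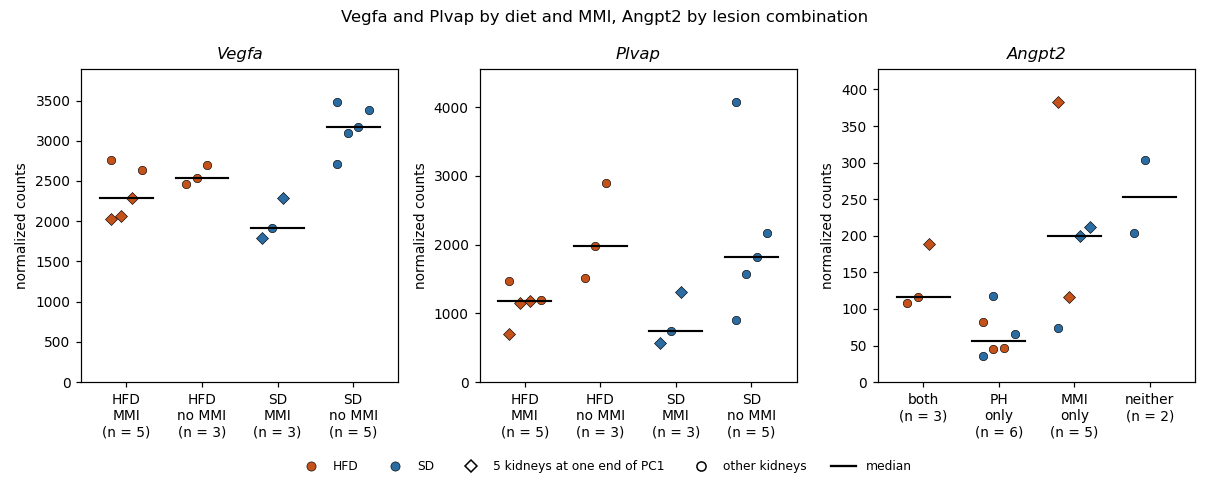
Normalized counts (vertical axes, from 0) of Vegfa and Plvap by diet and MMI, and of Angpt2 by lesion combination, 1 point per kidney with lines at medians; colour gives the diet and diamonds the 5 kidneys that lay apart on PC1. Vegfa separates completely by MMI among SD-fed rats (at most 2290 against at least 2706) but not among HFD-fed rats, and Angpt2 is lowest in the rats with PH alone.

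The sequence upstream of the start is shown for Vegfa and Plvap, the members that passed by MMI. The RefSeq promoter table (build GRCr8) held 5 of the 9 members (Vegfa, Kdr, Flt1, Ehd3 and Plvap). The 250 bases before the start are printed 5′ to 3′ on the gene's strand, for Vegfa before the most upstream of the starts listed, with motif matches in capitals.
Vegfa, chr9:22452604-22452853, plus strand: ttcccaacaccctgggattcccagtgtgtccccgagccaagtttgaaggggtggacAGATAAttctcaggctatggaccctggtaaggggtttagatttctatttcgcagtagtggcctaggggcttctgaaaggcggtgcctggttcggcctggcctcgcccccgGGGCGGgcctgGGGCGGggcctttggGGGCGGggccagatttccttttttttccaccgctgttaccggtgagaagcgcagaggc
Plvap, chr16:18231280-18231529, minus strand: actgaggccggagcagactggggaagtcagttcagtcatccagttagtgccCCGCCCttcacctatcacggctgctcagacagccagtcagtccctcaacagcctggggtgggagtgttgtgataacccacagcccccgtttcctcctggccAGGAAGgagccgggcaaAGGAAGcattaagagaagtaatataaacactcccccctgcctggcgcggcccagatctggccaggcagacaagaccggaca
Motifs were searched on both strands. For ETS factors the letters were AGGAAG. For the GC box that Sp1 binds they were GGGCGG. The site of GATA factors was written as AGATAA. Hypoxia response elements were searched by their core, ACGTG. No capital run is shared by 2 motifs. Vegfa held GGGCGG at 3 places and AGATAA at 1, and Plvap held AGGAAG at 2 places and GGGCGG, read on the other strand, at 1. Neither held ACGTG in this window. Of 33469 rat promoters of the same length, 29.5% held AGGAAG, 30.5% GGGCGG, 10.3% AGATAA and 16.6% ACGTG. All 5 members with a sequence held GGGCGG and 2 held AGGAAG (Flt1 and Plvap).

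Neither VEGF receptor passed by MMI. Kdr (ENSRNOG00000046829), the main signalling receptor, spanned 205 to 620 normalized counts with MMI (median 520) and 347 to 634 without MMI (median 422). The lowest and 4 of the highest 6 values belonged to kidneys that lay apart. Its log2 fold change was -0.01 ± 0.22 (SE, adjusted p = 0.979), with a 95% interval of -0.46 to 0.44, and it was -0.18 without the 5 kidneys. Flt1 (ENSRNOG00000000940), the decoy-like receptor, spanned 494 to 1092 normalized counts with MMI (median 743) and 528 to 954 without MMI (median 715). Its log2 fold change was -0.05, with an interval of -0.39 to 0.30 (adjusted p = 0.838), and it was -0.34 without the 5 kidneys (adjusted p = 0.656).

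Tek and Cdh5 were highest in the same 3 kidneys. Tek (ENSRNOG00000008587), which encodes Tie2, had 1622 normalized counts in HFD rat 1274, 1457 in SD rat 1248 and 1420 in SD rat 1247, and at most 1039 in the other 13 kidneys. Cdh5 (ENSRNOG00000013324) had 430, 491 and 345 in these 3 kidneys, and at most 275 elsewhere. All 3 lay among the 5 kidneys that lay apart and carried MMI without PH. Across MMI, Tek spanned 401 to 1622 normalized counts with MMI (median 953) and 422 to 942 without MMI (median 700). Tek thus had a log2 fold change of 0.39 ± 0.26 (SE, adjusted p = 0.259). Cdh5 spanned 118 to 491 with MMI (median 264) and 177 to 275 without MMI (median 205), a log2 fold change of 0.30 ± 0.24 (SE, adjusted p = 0.35). The MMI group was the wider for both, above and below the other group. Without the 5 kidneys the directions turned, to -0.21 for Tek and -0.30 for Cdh5. Angpt2 was highest in HFD rat 1274 (383), next in SD rat 1249 (304), which carried neither lesion, and then in SD rats 1248 (212) and 1251 (203). Its log2 fold change by MMI was 0.84 ± 0.42 (SE, adjusted p = 0.139), and 0.18 without the 5 kidneys. Without SD rat 1249 alone, one of the least legible numbers, it passed at 1.10 (adjusted p = 0.0408).

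Angpt1 and Ehd3 varied without a pattern by lesion that passed. Angpt1 (ENSRNOG00000005854), the Tie2 agonist, was low in counts, 17.0 to 70.2 with MMI (median 26.8) and 25.6 to 85.1 without MMI (median 40.6). The lowest 4 kidneys all carried MMI, but so did 3 of the highest 4. Its log2 fold change was -0.34 ± 0.31 (SE, adjusted p = 0.411), and -0.38 without the 5 kidneys. Ehd3 (ENSRNOG00000007744), the glomerular endothelial marker, spanned 226 to 804 normalized counts with MMI (median 363) and 341 to 613 without MMI (median 440.5). HFD rats 1255 and 1274, both at the same end of PC1, held the lowest and the highest value. For Ehd3 the log2 fold change was -0.18 ± 0.21 (SE, adjusted p = 0.541), and -0.16 without the 5 kidneys.

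By MMI, 12 of the same 50 markers of other cell types passed (24.0%, beside 26.0% of all genes), a share close to the background. Of 9 podocyte markers, 4 were lower and none higher with MMI (Cdkn1c, Synpo, Nphs1 and Nes), and the list summed to 2274 to 7932 normalized counts with MMI (median 5439) and 5022 to 9217 without MMI (median 7429). Of 8 proximal tubule markers, 2 were lower (Slc34a1, the phosphate transporter, at -1.24, and Slc22a6, the organic anion transporter, at -1.16), with sums of 56640 to 162800 with MMI and 100400 to 282700 without MMI. Of 5 thick ascending limb markers, 2 were higher (Cldn16 at 0.57 and Kcnj1 at 0.68), with sums of 87910 to 208500 with MMI and 81520 to 133500 without MMI. Of 5 smooth muscle markers, 2 were lower (Smtn at -1.46 and Tagln at -0.92), with sums of 1066 to 2225 with MMI and 1680 to 4872 without MMI. Of 7 mesangial and pericyte markers, 1 was lower (Cspg4 at -0.57), with sums of 921 to 1687 with MMI and 1360 to 1906 without MMI. Of 5 distal and collecting duct markers, 1 was higher (Scnn1g at 0.34). No macrophage or red blood cell gene passed. None of the podocyte, proximal tubule, smooth muscle or mesangial markers was at 0 in any library. Mitochondrial transcripts took 17.9 to 29.6% with MMI and 18.3 to 24.5% without MMI. Without the 5 kidneys none of the 12 passed. Single rats left out ended the calls of Nes (11 of 16), Cspg4 (9), Nphs1 and Kcnj1 (7 each), Scnn1g (6), Cldn16 (2, SD rat 1244 and HFD rat 1274) and Slc22a6 (1, SD rat 1244), and the other 5 held in every such fit. The part of these markers in the values of Vegfa and Plvap was not tested.

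Beyond the members, 67 further genes of endothelium and of the VEGF and angiopoietin families were listed, and 66 were tested. By MMI 15 passed (22.7%, beside 26.0% of all genes), 13 lower and 2 higher. By PH 1 passed, Angptl2, an angiopoietin-like protein, at 1.10 ± 0.22 (SE, adjusted p = 0.0403), a call that 12 of 16 single rats ended when left out and that did not hold without the 5 kidneys (adjusted p = 0.19), and by diet none. The median log2 fold change of the 66 by MMI was -0.06, against 0.03 over all genes. Of 8 Notch pathway genes, 4 were lower and none higher, with Notch4, the endothelial Notch receptor, at -1.56 ± 0.29 and the ligand Jag2 at -1.46 ± 0.33 (SE, adjusted p = 0.00798 and 0.00854), and with Notch1 at -0.76. Of 27 other pan-endothelial genes, 6 passed lower and 1 higher. Over that list, passed or not, 16 lay above 0 and 11 below, with a median of 0.07. Sox18, an endothelial transcription factor, was at -1.69 ± 0.30 (SE, adjusted p = 0.00798). Rasip1, needed for vessel lumens, was at -1.06, and Cldn5, an endothelial tight junction protein, at -1.16. Tie1, the partner receptor of Tek, was at -0.75 ± 0.19 (SE, adjusted p = 0.0136), the only 1 of 7 angiopoietin-Tie partners to pass. Ephb4, the venous ephrin receptor, was at -0.47, and Gata5, listed for glomerular endothelium, at -0.9998. Prox1, the lymphatic transcription factor, was higher at 1.04 ± 0.35 (SE, adjusted p = 0.0395). None of the 7 other VEGF ligands and receptors passed. Among 6 hypoxia pathway genes Hif1a was higher (0.57) and Egln1, the prolyl hydroxylase that marks HIF for degradation, lower (-0.35), a call that 11 of 16 single rats ended. Without the 5 kidneys they were at 0.12 and -0.07, and neither passed. Of the 15, 10 passed whichever single rat was left out. The calls of Notch1 (7 of 16 rats), Ephb4 and Prox1 (10 each), Adgrf5 and Heyl (11 each) were ended by single rats, and SD rats 1244, 1245, 1246 and 1247 and HFD rats 1252, 1271 and 1274 each ended all 5. Without the 5 kidneys that lay apart none of the 15 passed, and all 15 kept their direction at a smaller size. They then ran from -1.30 (Notch4) to 0.18 (Adgrf5), with Heyl at -0.18 and Prox1 at 0.10. The 15 were picked in the fit with all rats, which holds the same remaining rats, so the kept direction is no separate support. With PH in the same fit 5 of the 15 passed.

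**Figure D4:**
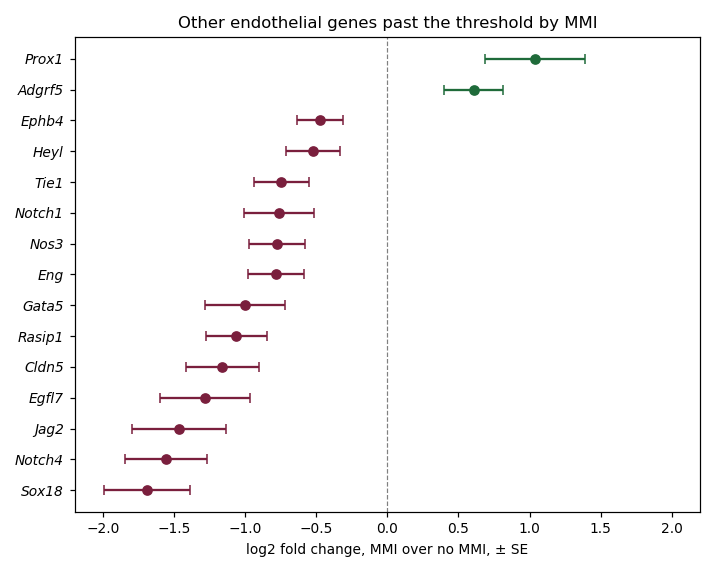
Log2 fold change, MMI over no MMI (horizontal axis), of the 15 further endothelial genes that passed the threshold; points are limma estimates and bars 1 SE. The 13 genes to the left of 0 run from Sox18 (-1.69) to Ephb4 (-0.47), and Adgrf5 (0.61) and Prox1 (1.04) lie to the right.

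Relations between members were computed for 7 pairs over the 11 kidneys other than the 5 that lay apart, since those 5 are too few for a value of their own. Kdr and Flt1, the receptors of Vegfa, varied together (Pearson's r = 0.74, permutation p = 0.0092, adjusted p = 0.052; Spearman's rho = 0.83, permutation p = 0.0026, adjusted p = 0.018), and r was 0.82 without the 2 kidneys farthest from the median of Kdr. Angpt1 and its receptor Tek gave r = 0.70 (permutation p = 0.015, adjusted p = 0.052) and rho = 0.77 (permutation p = 0.0072, adjusted p = 0.025), and r = 0.59 without 2 kidneys. Tek and Cdh5 gave r = 0.68 (permutation p = 0.025, adjusted p = 0.058) and rho = 0.60 (permutation p = 0.056, adjusted p = 0.13), and r fell to 0.44 without 2 kidneys, so that it rests in part on SD rat 1250 and HFD rat 1259. Angpt2 with Tek gave r = 0.42 and rho = 0.48 (permutation p = 0.2 and 0.14, adjusted p = 0.35 and 0.25). Vegfa gave no relation that passed with Kdr (r = 0.10, rho = -0.15, permutation p = 0.78 and 0.65) or with Flt1 (r = 0.17, rho = 0, permutation p = 0.63 and 1), and with Plvap gave r = 0.32 and rho = 0.15 (permutation p = 0.34 and 0.65). All tests were two-sided with 100000 permutations, and the adjusted values are over the 7 pairs.

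As a description over all 16 kidneys, the genes most like Kdr were Filip1 (r = 0.86), Plcl2 (0.86) and Dnajb14 (0.84), and those most like Ehd3 were Gja5 (0.79), Tmtc1 (0.75) and Rcsd1 (0.74). The genes most like Plvap were Tcof1, Notch4 and Tns2, each at r = 0.95. These values share the split between the 5 kidneys and the rest, and no p is given.

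The small RNA libraries of 15 of the same kidneys (8 HFD-fed and 7 SD-fed, all but SD rat 1246) gave a separate endothelial readout, miR-126, whose gene lies within Egfl7 and which in mice and zebrafish keeps vessels intact by sharpening VEGF signalling. Both mature arms are shown because the libraries differed in which arm they held. The sequences are from RefSeq (GRCr8), 5′ to 3′, with the seed, bases 2 to 8, in capitals.
rno-miR-126a-3p, chr3:29813219-29813240, plus strand: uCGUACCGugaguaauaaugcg
rno-miR-126a-5p, chr3:29813182-29813202, plus strand: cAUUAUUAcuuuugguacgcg
The seeds differ, and both arms lie inside the span of Egfl7, chr3:29802481-29814966.

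Egfl7 itself (ENSRNOG00000019388), a matrix protein secreted by endothelium, was lower with MMI, at -1.28 ± 0.32 (SE, adjusted p = 0.0108). It spanned 86.5 to 341 normalized counts with MMI, and 209 to 964 without MMI, and 7 of the 8 rats with MMI lay below every rat without it. HFD rat 1256 was the exception. By MMI, 26.0% of all genes tested passed. Without the kidneys that lay apart on the first principal component, Egfl7 was at -0.55 and did not pass (adjusted p = 0.692, limma). miR-126a-3p passed in no comparison here. The study lists this arm among its key kidney small RNAs by diet, lower with HFD, with an adjusted p above 0.05 (DESeq2). In the values tested here, miR-126a-3p was as follows. It spanned 10400 to 246500 normalized counts with MMI (median 28540, n = 8) and 12580 to 38090 without MMI (median 20760, n = 7), with a log2 fold change of 0.51 ± 0.52 (SE, adjusted p = 0.916). By diet it spanned 10400 to 38090 in HFD-fed rats (median 21070, n = 8) and 18210 to 246500 in SD-fed rats (median 32250, n = 7), a log2 fold change of -0.91 ± 0.48 (SE, adjusted p = 0.338), and by PH the log2 fold change was -0.82 ± 0.49 (SE, adjusted p = 0.44). SD rat 1250 held the value of 246500, and all others were at most 38090. Without that rat the log2 fold changes fell in size to -0.46 by diet, -0.36 by PH and 0.09 by MMI. No small RNA of 812 passed in any of the 3 comparisons (0%), with limma or with edgeR on recovered reads, and at an unadjusted p under 0.05 limma gave 107 by diet, 93 by PH and 4 by MMI. The study, with DESeq2, reports kidney small RNAs that passed by diet.

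The 5p arm and the ratio of the arms split the libraries by size factor. In 7 libraries (5 HFD and 2 SD) with a size factor above 1, the authors' scaling factor, miR-126a-5p spanned 5447 to 16000 normalized counts. In the other 8 (3 HFD and 5 SD) it spanned 364 to 731, without overlap. All 5 kidneys that lay apart in mRNA were among these 8, along with SD rats 1244, 1245 and 1249. The split of the libraries is thus not separate from that of the kidneys, and what links them was not tested. How many other small RNAs also separate these libraries was not counted here, so the split may not be particular to miR-126. The ratio of 3p to 5p reads was 1.58 to 15.4 in these 7 and 40.8 to 77.4 in the other 8. The libraries held between 3429473 and 10584069 assigned reads. With the kind of library as a covariate, the log2 fold change of miR-126a-5p by diet was -0.19 (adjusted p = 0.733), against 1.18 without it (adjusted p = 0.479). In the same fit miR-126a-3p by diet was at -0.96 (adjusted p = 0.49).

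**Figure D5:**
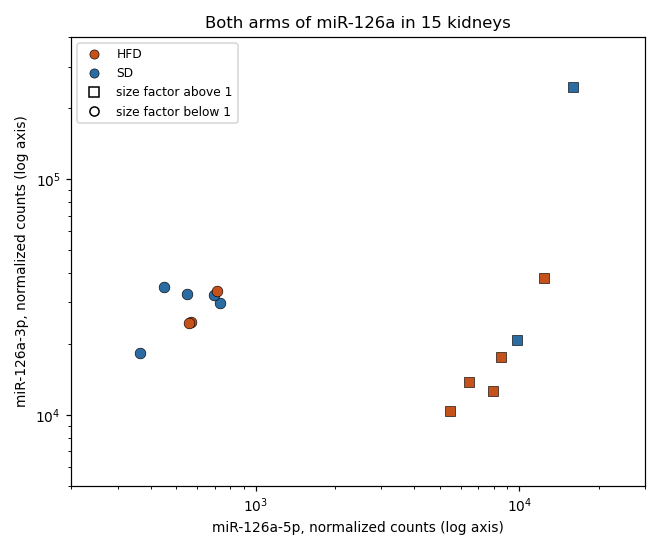
Normalized counts of miR-126a-3p (vertical) against miR-126a-5p (horizontal), both on log axes, in 15 kidneys; colour gives the diet and shape the kind of library. The libraries with a size factor above 1 lie at 5447 or more for the 5p arm and the others at 731 or less, and SD rat 1250 stands at the top with 246500 for the 3p arm.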

How the data were processed

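Kidney mRNA libraries (16) and small RNA libraries (15) from the same rats were used. Per the paper's methods, the authors removed adapters (Cutadapt), estimated mRNA levels with Salmon and counted small RNA with Subread, on Rnor6.0, before DESeq2 1.24.0. Both deposited tables hold normalized counts, treated here as a signal. The mRNA values are not whole multiples of a step per library, so how the authors scaled them could not be read from the values and the raw depth is unknown. The deposited columns of the authors' own comparison by diet (mean, fold change, p-values) were not used. All small RNA values (100%) were whole multiples of a step per library (tolerance 0.01 reads), which gave the reads. The urine table was not used here.

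Genes with a mean of at least 5 normalized counts were tested on log2(normalized count + 1) with limma 3.58.1 (trended variance, two-sided) in R 4.3.3, with Benjamini-Hochberg adjustment over all genes. Fold changes are on that scale and understate the change of low genes. edgeR 4.0.16 was the alternative for small RNA. The code was tested on simulated data. Each rat is 1 sample, so p-values measure the spread between animals. The members, gene lists and comparisons were chosen with earlier results of these data known. Named beside the members were up to 3 genes per list and comparison that passed with the smallest p, the 3 genes most correlated with Kdr, Ehd3 and Plvap, Egfl7 and miR-126. The other genes among the 15 plotted fell outside that rule, as did the podocyte marker Nes by MMI, though not by PH. These were added after their values were seen, as were the alternatives for the 15. A listed marker is not reported here and was left out of its list. Mcam stood in both the pan-endothelial and the mesangial list. Alternatives covered the pseudocount, the filter, scaling, weights, covariates and leaving out rats. Promoter and miRNA sequences are RefSeq's, build GRCr8, and coordinates are of that build, not of the authors'.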

Additional observations from a re-analysis of the deposited data

Results flagged for a closer look

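Single kidneys stood apart from their group by Dixon's test in 9 of 66 groups tested. Chance flags about 1 in 20 of independent groups, but these groups share rats and values, so the 9 cannot be set against that rate. HFD rat 1274 was the highest of the HFD-fed rats for Cdh5 (430.4 normalized counts, next 273.3) and for Angpt2 (382.6, next 189.2), and for Angpt2 also of the rats with MMI (next 212.1). The same rat was the highest of the rats without PH for Ehd3 (803.6, next 458.8). SD rat 1244 was the highest of the SD-fed rats for Plvap (4074, next 2164). HFD rat 1275 was the highest of the rats without MMI for Angpt1 (85.11, next 50.24). SD rat 1250 was the highest for miR-126a-3p (246500 normalized counts) among the SD-fed rats (next 34730), among the rats without PH (next 33470) and among the rats with MMI (next 33470). The cause of these values was not tested.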

How the results depend on the processing

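The count of members past the threshold by diet was 0 in every alternative run. By PH it was 0 with all rats, 3 with array weights (Cdh5, Angpt2 and Plvap), 2 with diet as a covariate, and 0 to 2 with single rats left out (Angpt2 when SD rat 1250 was absent, Angpt2 and Plvap when HFD rat 1252 was). By MMI it was 2 with all rats, 5 with array weights (Vegfa, Cdh5, Angpt2, Plvap and Tek), 2 to 3 with single rats left out (Angpt2 was added when SD rat 1249 was absent), 1 without rats 1246, 1248 and 1249 (Plvap), 1 with both lesions in 1 fit (Vegfa), and 0 without rats 1247, 1248, 1252, 1255 and 1274, in HFD rats only and in SD rats only, where fewer rats were compared. For the difference of the MMI effect between the diets it was 0, and 1 with array weights (Vegfa). Over all genes, the count by PH was 174, with 4976 under array weights, 3806 with diet as a covariate, 315 in SD rats only, 91 with a mean of at least 1, 63 with equal totals, and 0 with both lesions in 1 fit, without rats 1246, 1248 and 1249 or without the 5 rats. By MMI it was 3561, with 6532 under array weights, 1482 without rats 1246, 1248 and 1249, 1046 with both lesions in 1 fit, 2 in SD rats only, and 0 in HFD rats only or without the 5 rats. By diet it was 0, with 6 under array weights, 3 without the 5 rats and 1 without SD rat 1250, and for the difference between the diets 0, with 1334 under array weights, 3 without the 5 rats and 3 without SD rat 1250. Equal totals moved the median of all genes for that difference to 0.18, against 0.01 as deposited, and that of Vegfa to 0.70, against 0.53. The same alternatives were applied to the other named genes and to miR-126a-5p after the data were seen.

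These log2 fold changes turned their sign, and none of them had passed the threshold. By diet, with equal totals, Kdr was 0.019, Tek 0.043 and Angpt1 0.032. By diet with array weights, Kdr was 0.11, Cdh5 0.026, Tek 0.12 and Angpt1 0.34. By diet without rats 1246, 1248 and 1249, Cdh5 was 0.10, Tek 0.15 and Angpt2 0.041. By diet without the 5 rats, Kdr was 0.13, Tek 0.034 and Angpt1 0.078. By PH without the 5 rats, Vegfa was -0.041, Cdh5 0.16 and Tek 0.097, and in HFD rats only Flt1 was -0.10 and Ehd3 -0.0298. By MMI, Kdr was 0.0093 with TMM factors, 0.087 with array weights, 0.0039 with diet as a covariate, 0.095 with both lesions in 1 fit and 0.20 in SD rats only, and Flt1 was 0.001 with array weights. By MMI without the 5 rats, Cdh5 was -0.30 and Tek -0.21. With the kind of library as a covariate miR-126a-5p was -0.19 by diet, -0.28 by PH and 0.18 by MMI. With single rats left out, signs turned within -0.12 to 0.11 (Kdr), -0.029 to 0.12 (Flt1), -0.23 to 0.059 (Cdh5), -0.17 to 0.105 (Tek), -0.20 to 0.12 (Angpt1), -0.12 to 0.14 (Ehd3) and -0.16 to 0.25 (Plvap) by diet, -0.015 to 0.29 (Ehd3) by PH, and -0.074 to 0.15 (Kdr) and -0.14 to 0.024 (Flt1) by MMI. The cause was not tested.

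No paired analysis was possible because the HFD-fed and SD-fed rats are different animals and share no numbers. The lesion marks were read by eye, the raw depth of the mRNA libraries is unknown, and all 5 kidneys that lay apart carried MMI, so that without them 3 rats with MMI remain.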
